A study of Mus musculus with 6 samples.

Results

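The interleukin 1 (IL-1) axis, the *Nlrp3* inflammasome, *Tnf* and *Il6* were examined in the bone marrow of *MxCDX2* and control mice through 10 genes chosen by name, out of 39179 mouse genes in the count files. They were the ligands *Il1b*, *Il18*, *Tnf* and *Il6*, the receptor antagonist *Il1rn*, the receptor chains *Il1r1*, *Il1rap* and *Il1r2*, and the inflammasome genes *Nlrp3* and *Casp1*. All 10 passed the filter on low counts and were among the 15980 genes tested. The 6 mice were littermates, aged 3 months at treatment according to the methods. *MxCDX2* mice (genotype *RsCDX2::Mx1Cre*, 3 mice) carried both alleles of the model: at *Rosa26*, human *CDX2* that stays silent until Cre removes a stop, and a Cre transgene that interferon switches on through the *Mx1* promoter. Control 1 was an *RsCDX2* animal, control 2 an *Mx1Cre* animal and control 3 a wild-type animal, so each control genotype was seen in a single animal. Every mouse, controls included, had received poly(I:C), an RNA mimic that triggers interferon, by 3 intraperitoneal injections of 10 µg per g, and marrow RNA was taken 6 weeks later. The *Mx1* promoter answers to interferon in many cell types, and which cells had recombined was not measured here. The RNA came from whole marrow, in which fewer cells of a type and less RNA per cell cannot be told apart.

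IL-1β is made mainly by monocytes, macrophages and neutrophils as an inactive precursor. NLRP3 is a cytosolic sensor that assembles, through the adaptor ASC, with caspase-1, and the protease then cuts the precursors of IL-1β and IL-18 into their secreted forms. IL-1β signals through IL-1R1 paired with the accessory chain IL-1RAP. The antagonist encoded by *Il1rn* occupies IL-1R1 without signalling, and IL-1R2 is a decoy that binds IL-1 but lacks a signalling domain. TNF and IL-6 are inflammatory cytokines that IL-1 can induce. In marrow, IL-1 is known to push stem and progenitor cells towards myeloid output.

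The promoters of the 4 genes on which the account below turns most are shown for orientation, as the 300 bases from 250 before the transcription start (position 0), in RefSeq (GRCm38.p6). *Il1b* and *Tnf* are shown because they are the ligands that head each cytokine pathway, and *Il1r2* and *Casp1* because they had the largest downward and the largest upward difference of the 10. The windows are chr2:129371090-129371389 on the minus strand for *Il1b*, chr17:35201958-35202257 on the minus strand for *Tnf*, chr1:40085843-40086142 on the plus strand for *Il1r2* and chr9:5298267-5298566 on the plus strand for *Casp1*. Capitals mark matches to 6 motifs searched on both strands.
Il1b: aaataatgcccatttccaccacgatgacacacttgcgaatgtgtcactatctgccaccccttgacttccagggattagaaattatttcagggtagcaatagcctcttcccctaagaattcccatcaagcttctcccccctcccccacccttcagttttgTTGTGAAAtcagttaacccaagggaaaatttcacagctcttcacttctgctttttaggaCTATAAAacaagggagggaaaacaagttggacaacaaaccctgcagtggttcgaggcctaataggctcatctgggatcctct
Tnf: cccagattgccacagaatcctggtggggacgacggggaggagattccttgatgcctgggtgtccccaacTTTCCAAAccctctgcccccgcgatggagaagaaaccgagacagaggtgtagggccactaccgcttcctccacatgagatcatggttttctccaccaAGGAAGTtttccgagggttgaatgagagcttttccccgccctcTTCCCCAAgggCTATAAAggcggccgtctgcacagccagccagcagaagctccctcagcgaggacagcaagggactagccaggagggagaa
Il1r2: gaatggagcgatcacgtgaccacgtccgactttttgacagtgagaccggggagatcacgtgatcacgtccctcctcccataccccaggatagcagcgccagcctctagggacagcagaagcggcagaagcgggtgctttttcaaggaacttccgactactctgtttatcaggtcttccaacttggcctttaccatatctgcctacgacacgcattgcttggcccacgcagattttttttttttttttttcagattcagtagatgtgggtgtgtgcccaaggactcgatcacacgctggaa
Casp1: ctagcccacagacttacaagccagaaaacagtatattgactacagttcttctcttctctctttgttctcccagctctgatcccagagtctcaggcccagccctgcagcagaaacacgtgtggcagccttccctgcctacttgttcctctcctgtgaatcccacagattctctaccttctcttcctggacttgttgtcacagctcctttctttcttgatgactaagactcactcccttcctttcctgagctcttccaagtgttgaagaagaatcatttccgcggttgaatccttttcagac

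In the *Il1b* window a TATA box (TATAAA) lay at -31 to -26, and the same bases with 1 more matched the CDX motif (TTTATNG, here on the other strand), so these matches overlap. A C/EBP match (TTNNGNAA) lay at -91 to -84. *Tnf* had the same arrangement of overlapping TATA and CDX matches, with the TATA box at -29 to -24, C/EBP matches at -181 to -174 and -41 to -34, and a PU.1 match (AGGAAGT) at -84 to -78. *Il1r2* and *Casp1* had no match to any of these letters, nor to AP-1 (TGANTCA) or the NF-κB consensus, which says nothing about whether the factors act there. The *Il1r2* window lies within the annotated gene, downstream of its annotated first base at chr1:40074079, around which no search was made. Every RefSeq start site of the 10 genes was then counted (14 windows). The letters TATAAA, on either strand, were found in 4 genes, AP-1 in 2, C/EBP in 6, PU.1 in 1, CDX in 2 and NF-κB in 3. In *Il18* and *Il1rn* the TATAAA letters were on the other strand, at -175 to -170 and at 14 to 19, unlike the positions in *Il1b* and *Tnf*. By single window the matches were in 4, 2, 9, 1, 2 and 3 of the 14, in the same order, and some windows of *Il1rn* overlap. Among all 32851 promoters of this length the shares, also by single window, were 13.6%, 7.81%, 40.7%, 9.35%, 10.9% and 8.46% in the same order. These matches are descriptions of letters, not of binding.

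The libraries held 38646101 to 49899650 reads on genes per mouse. Reads assigned to mouse *Cdx2*, the only CDX2 gene in the annotation, numbered 4, 0 and 0 in the controls, in that order, against 152, 155 and 183 in the *MxCDX2* animals. Markers of erythroid cells, B cells and neutrophils were present in all 6 mice, as bone marrow would give. Several marker lists moved between the groups together with the genes described here, and their part in the results was not tested. Of 8 monocyte markers 6 were higher past the thresholds and none lower, with summed normalized counts of 51083 to 91385 in controls and 292628 to 348548 in *MxCDX2* mice. Of 11 neutrophil markers 9 were lower and none higher, with sums of 2095790 to 3275450 against 852309 to 1173720. Promyelocyte markers did not fall with them past the thresholds: of 5, 2 were higher and none lower, with sums of 33136 to 178485 against 198215 to 210578. Macrophage markers were lower in 6 of 10 and higher past the thresholds in none, with sums of 27583 to 75042 against 18902 to 24694. This list went both ways, since *Adgre1* (log2 fold change 0.75) and *Cd68* (0.82) lay above all controls in every *MxCDX2* mouse. All 8 erythroid markers were lower, with sums of 1764410 to 2101040 against 50054 to 194447. No gene of these lists was at 0 in every mouse.

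Values below are normalized counts, the reads of a gene scaled to the mean library size after edgeR's TMM normalization, and are given for mice 1, 2 and 3 of each group in that order. A gene passed when its absolute log2 fold change (*MxCDX2* over control) exceeded 1 and its adjusted p-value in edgeR's quasi-likelihood test was below 0.05. By this rule none of the 10 genes passed, against 13.6% of all genes tested (4.59% higher and 9.03% lower). *Casp1* and *Il1rap* had an adjusted p below 0.05 without reaching the fold, so 2 of 10 met the p-value alone, where 21.7% of all genes did. At an unadjusted p below 0.05 the count was 6 of 10 (*Il1b*, *Il1r2*, *Il1rap*, *Il18*, *Casp1* and *Il6*), against 36.1% of all genes. In 6 of 10 the *MxCDX2* mice did not overlap the controls, 5 below and 1 above, against 42.1% of all genes. The log2 fold change was below 0 in 8 of the 10 and had a median of -0.65, beside 0.0021 over all genes tested. The choice of test mattered for 3 of them: DESeq2, with or without a prior on the fold change, passed *Il1b*, *Il1r2* and *Il18*, when 15.5% and 15.2% of the genes it tested passed, whereas limma voom passed none of the 10, beside 12.9% of genes. The plot of normalized counts by mouse shows each of the 10 genes.

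**Figure D1:**
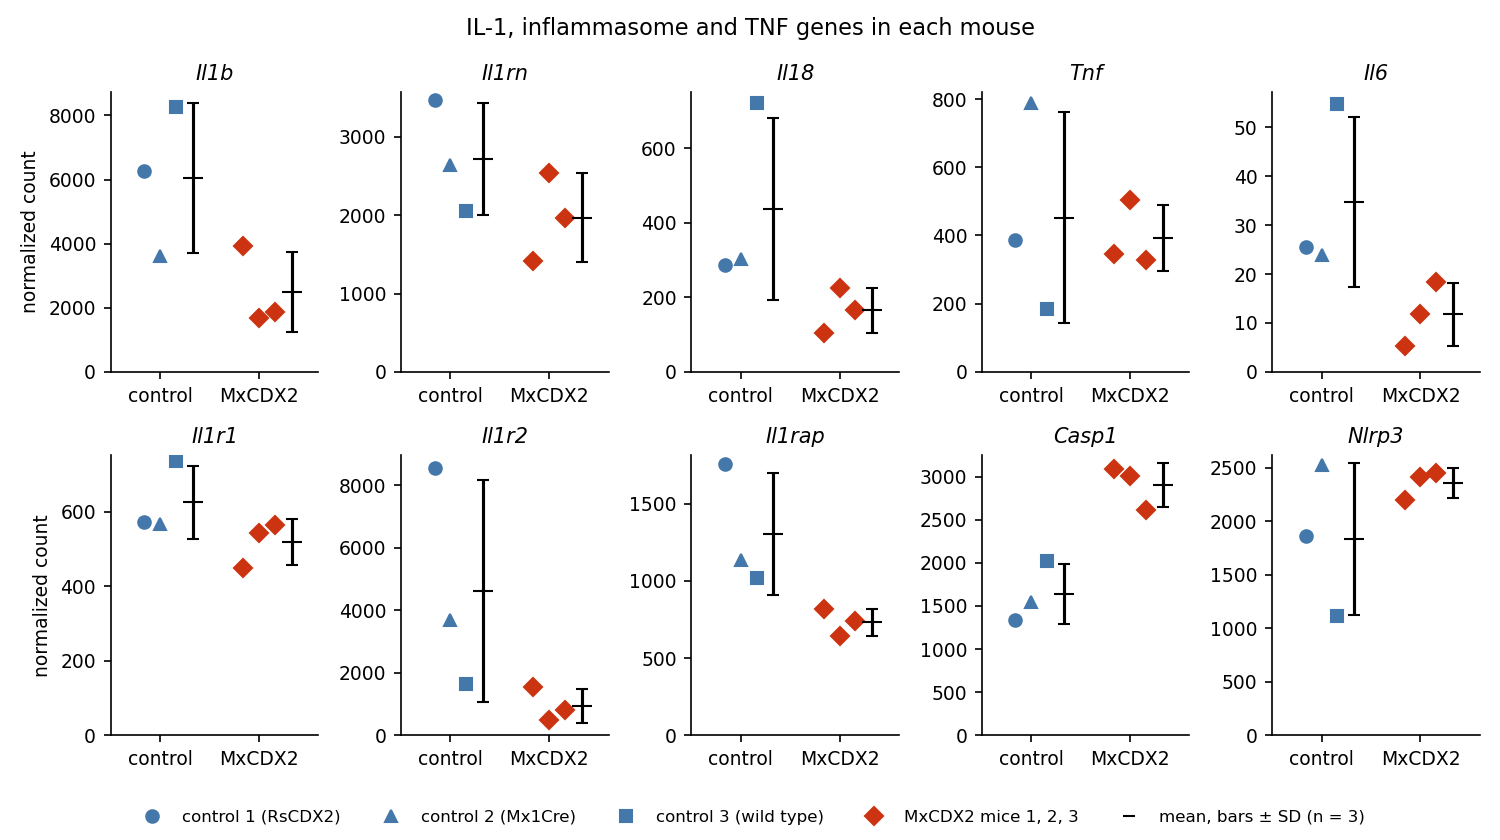
Normalized counts of the 10 genes in each mouse on linear axes that start at 0, with mice 1, 2 and 3 from left to right in each group and the mean ± SD (n = 3) as black bars. *Casp1* was higher in every *MxCDX2* mouse than in any control, while *Il1r1*, *Il1r2*, *Il1rap*, *Il18* and *Il6* were lower in every *MxCDX2* mouse.

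Among the ligands, *Il1b* (ENSMUSG00000027398, chr2:129364570-129371139, minus strand, GRCm38) had the highest mean level per length of the 10 in control marrow, though its range overlapped that of *Il1r2*. Its normalized counts were 6278, 3604 and 8246 in controls and 3933, 1694 and 1861 in *MxCDX2* mice. The groups overlapped, because *MxCDX2* mouse 1 lay above the *Mx1Cre* control. The means of 6043 ± 2330 and 2496 ± 1247 (SD, n = 3 each) gave a log2 fold change of -1.28 (SE 0.42, 95% interval -2.27 to -0.28), or 2.42-fold lower, with an unadjusted p of 0.0192 and an adjusted p of 0.0729 by edgeR's quasi-likelihood test. DESeq2 gave a log2 fold change of -1.27 with an adjusted p of 0.0160. With *MxCDX2* mouse 1 left out the edgeR log2 fold change was -1.76 (adjusted p = 0.0276), and without the wild-type control it was -0.97 (adjusted p = 0.146). The exons of *Il1b* share 25 bases with the antisense gene *Il1bos*, which had 221 reads over the 6 mice, and the strand setting of the counting is not given in the sources used here.

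*Il18* (ENSMUSG00000039217, chr9:50554827-50581840, plus strand), the other cytokine that caspase-1 matures, was lower in all 3 *MxCDX2* mice but did not pass. It had 288, 303 and 719 normalized counts in controls and 104, 225 and 165 in *MxCDX2* mice. The wild-type control stood far above the other controls. Its log2 fold change was -1.40 (SE 0.46, 95% interval -2.51 to -0.30) with an adjusted p of 0.0744 by edgeR and 0.0119 by DESeq2. Without the wild-type control the edgeR log2 fold change was -0.82 with an adjusted p of 0.144.

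*Il1rn* (ENSMUSG00000026981, chr2:24336853-24351494, plus strand), the natural antagonist, overlapped between the groups and did not pass. Its counts were 3467, 2640 and 2050 in controls and 1409, 2535 and 1961 in *MxCDX2* mice. The log2 fold change was -0.47 (SE 0.27, 95% interval -1.10 to 0.17, adjusted p = 0.260 by edgeR). The balance of antagonist and agonist was read within each mouse, as *Il1rn* reads per *Il1b* read, which needs no scaling between mice. This ratio was 0.552, 0.733 and 0.249 in controls and 0.358, 1.5 and 1.05 in *MxCDX2* mice. In *MxCDX2* mice 2 and 3 *Il1rn* had more reads than *Il1b*, which no control showed, but *MxCDX2* mouse 1 lay within the control range. *Il1rn* has the longer exons (5535 bases against 1907), so read numbers do not rank these genes. Per length *Il1b* stayed above *Il1rn*, at 19.5 against 10.1 in *MxCDX2* mouse 2 and 21.5 against 7.79 in *MxCDX2* mouse 3. On the log2 scale the mean read ratios were -1.10 ± 0.81 and -0.27 ± 1.07 (SD). An exact permutation test did not separate the difference of 0.83 from 0 (two-sided p = 0.40, where 3 mice against 3 allow no p below 0.10). With 1 mouse left out the difference ran from 0.38 without the wild-type control to 1.43 without *MxCDX2* mouse 1.

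*Tnf* (ENSMUSG00000024401, chr17:35199381-35202007, minus strand) had 386, 788 and 183 normalized counts in controls and 345, 505 and 329 in *MxCDX2* mice. All 3 *MxCDX2* mice lay inside the control range, and the coefficient of variation was 68.1% in controls and 24.7% in *MxCDX2* mice. With a log2 fold change of -0.20 (SE 0.51, 95% interval -1.41 to 1.00, adjusted p = 0.810 by edgeR) it did not pass, and the value turned to 0.47 without the *Mx1Cre* control and to 0.035 with limma voom. *Il6* (ENSMUSG00000025746, chr5:30013114-30019981, plus strand) was barely detected, with 20, 24 and 60 reads in controls and 5, 12 and 21 in *MxCDX2* mice. Scaled, these were 25.6, 23.8 and 54.7 against 5.30, 11.8 and 18.3 normalized counts, lower in every *MxCDX2* mouse. This gave a log2 fold change of -1.54 (SE 0.56, 95% interval -2.88 to -0.21) with an adjusted p of 0.0970 by edgeR, so that neither *Tnf* nor *Il6* passed.

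Of the receptors, the decoy *Il1r2* (ENSMUSG00000026073, chr1:40074079-40125231, plus strand) had the largest difference of all 10 genes. It had 8553, 3698 and 1636 normalized counts in controls and 1547, 485 and 820 in *MxCDX2* mice. No *MxCDX2* mouse reached the lowest control, the wild-type mouse, but *MxCDX2* mouse 1 came close to it, and the controls themselves spanned a wide range (coefficient of variation 76.7%). The means of 4629 ± 3551 and 951 ± 543 (SD) gave a log2 fold change of -2.28 (SE 0.67, 95% interval -3.89 to -0.68), 4.87-fold lower. The adjusted p was 0.0539 by edgeR and 0.00140 by DESeq2. It was 0.0198 by edgeR without the wild-type control, where the log2 fold change was -2.67, whereas without the *RsCDX2* control the log2 fold change was -1.48 and did not pass. When every gene with at least 1 count was kept in the fit, *Il1r2* alone of the 10 passed (adjusted p = 0.0364, edgeR). Neutrophil markers, which fell past the thresholds in 9 of 11, moved in the same direction as the decoy. Promyelocyte markers rose past the thresholds in 2 of 5 and fell past them in none. The part of either list in the level of the decoy was not tested.

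The signalling chain *Il1r1* (ENSMUSG00000026072, chr1:40225080-40317257, plus strand) had 571, 566 and 737 normalized counts in controls and 449, 544 and 563 in *MxCDX2* mice. The groups did not overlap but nearly touched, at 566 in the lowest control and 563 in the highest *MxCDX2* mouse. Its log2 fold change was -0.27 (SE 0.19, 95% interval -0.71 to 0.17, adjusted p = 0.350 by edgeR). The accessory chain *Il1rap* (ENSMUSG00000022514, chr16:26581704-26730117, plus strand), which IL-1R1 needs to signal and which IL-33 and IL-36 receptors share, had 1758, 1137 and 1017 counts in controls and 817, 644 and 738 in *MxCDX2* mice. All *MxCDX2* mice lay below all controls. The log2 fold change of -0.83 (SE 0.23, 95% interval -1.39 to -0.27), 1.78-fold lower, had an adjusted p of 0.0474 by edgeR, and this p stayed below 0.05 with 1 mouse left out only when that mouse was the wild-type control. The exons of *Il1rap* share 552 bases with the antisense gene *Gm20319*, which had 9 reads over the 6 mice.

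The ratio of decoy to signalling receptor reads within each mouse was 15.0, 6.53 and 2.22 in controls and 3.44, 0.892 and 1.46 in *MxCDX2* mice. Its groups overlapped, since *MxCDX2* mouse 1 lay above the wild-type control. *Il1r2* has the shorter exons (1908 bases against 6363), so read numbers do not rank these genes. Per length *Il1r2* stayed above *Il1r1*, at 5.59 against 1.88 in *MxCDX2* mouse 2 and 9.45 against 1.95 in *MxCDX2* mouse 3. The log2 means of the read ratio were 2.59 ± 1.38 and 0.72 ± 0.99 (SD). The difference was -1.87, or 3.65-fold lower, with p = 0.20 in the exact permutation test. With 1 mouse left out the difference ran from -1.21 without the *RsCDX2* control to -2.59 without the wild-type control. The plot of ratios shows both receptor and ligand ratios mouse by mouse.

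**Figure D2:**
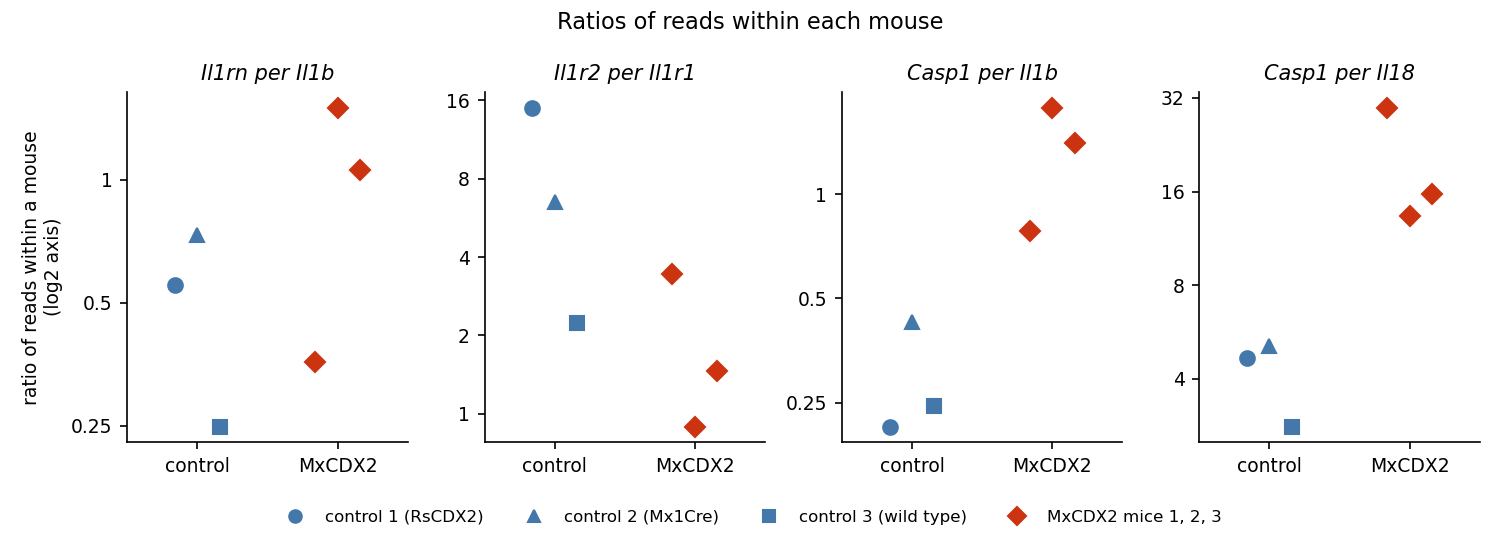
Ratios of reads within each mouse (log2 axes), for *Il1rn* to *Il1b*, *Il1r2* to *Il1r1*, *Casp1* to *Il1b* and *Casp1* to *Il18*, with mice 1, 2 and 3 from left to right in each group. The first 2 ratios overlapped between groups (exact permutation p = 0.40 and p = 0.20), and the *Casp1* ratios did not. Reads were not divided by gene length.

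In the inflammasome, *Casp1* (ENSMUSG00000025888, chr9:5298517-5307265, plus strand), which encodes the protease, was the only one of the 10 genes higher in every *MxCDX2* mouse. It had 1339, 1545 and 2020 normalized counts in controls and 3084, 3002 and 2606 in *MxCDX2* mice. The means of 1635 ± 349 and 2897 ± 255 (SD) gave a log2 fold change of 0.83 (SE 0.17, 95% interval 0.42 to 1.23), 1.77-fold higher, with an adjusted p of 0.0178 by edgeR and 0.00089 by DESeq2, short of the fold required. With 1 mouse left out the log2 fold change ran from 0.72 to 1.02, and the adjusted p from 0.00527 without the wild-type control to 0.0590 without *MxCDX2* mouse 2 (edgeR). *Nlrp3* (ENSMUSG00000032691, chr11:59541568-59566956, plus strand), the sensor, had 1866, 2530 and 1114 counts in controls and 2195, 2411 and 2456 in *MxCDX2* mice. The *MxCDX2* mice lay close together (coefficient of variation 5.92%) and within the range of the controls (38.6%). The log2 fold change was 0.36 (SE 0.28, 95% interval -0.30 to 1.02, adjusted p = 0.406 by edgeR).

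The protease and its cytokine substrates stood in a different proportion in the 2 groups, a comparison chosen after the values were seen and given without a test. *Casp1* reads per *Il1b* read were 0.213, 0.429 and 0.245 in controls and 0.784, 1.77 and 1.40 in *MxCDX2* mice. *Casp1* reads per *Il18* read were 4.66, 5.10 and 2.81 in controls and 29.7, 13.3 and 15.8 in *MxCDX2* mice. Both ratios were higher in each *MxCDX2* mouse than in any control. Monocyte markers, which rose past the thresholds in 6 of 8, moved in the same direction as *Casp1* and opposite to *Il1b* and *Il18*, neither of which passed by edgeR. Neutrophil markers, lower past the thresholds in 9 of 11, moved in the same direction as *Il1b* and *Il18*. Macrophage markers were lower past them in 6 of 10, though *Adgre1* and *Cd68* lay above all controls. The part of these lists was not tested.

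**Figure D3:**
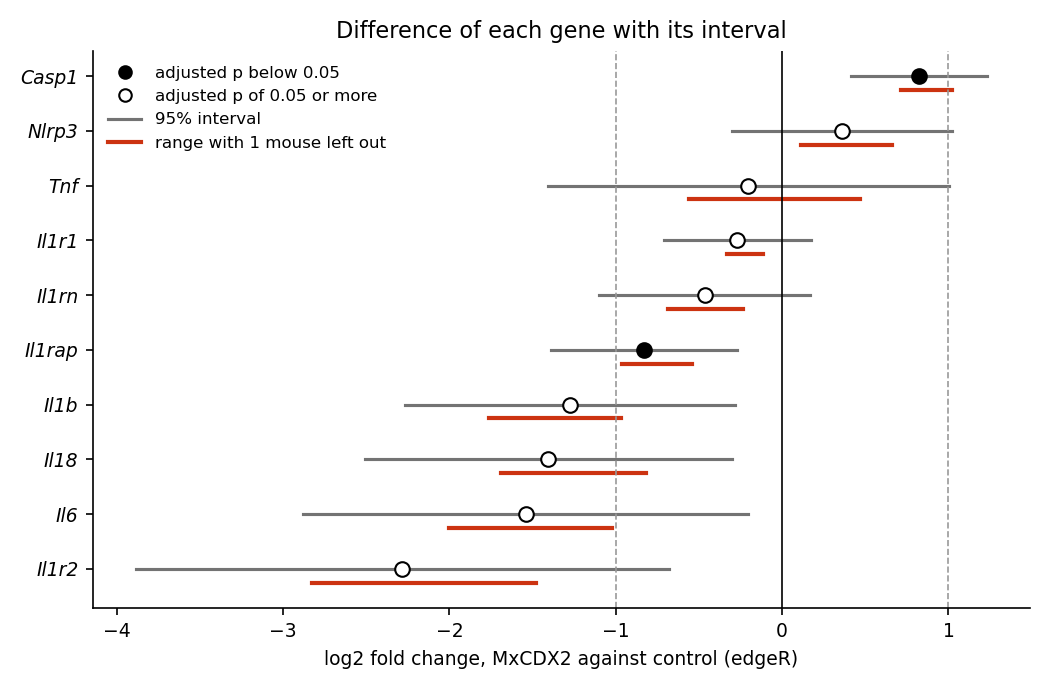
Log2 fold changes (*MxCDX2* over control) of the 10 genes with 95% intervals in grey and, in red, the range with 1 mouse left out. Filled points had an adjusted p below 0.05 (edgeR) and the dashed lines mark -1 and 1. *Casp1* and *Il1rap* are the filled points, and the intervals of *Il1b*, *Il1r2*, *Il18* and *Il6* also lie below 0.

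Across genes, levels were compared per length, as normalized counts per kilobase of exon, scaled by library size (RPKM-like). In controls the order of the mean levels was *Il1b* (69.7), *Il1r2* (53.4), *Casp1* (24.0), *Il1rn* (10.8), *Nlrp3* (9.96), *Il18* (9.31), *Tnf* (6.07), *Il1rap* (2.52), *Il1r1* (2.16) and *Il6* (0.31). Neighbours in this order overlapped between mice except *Casp1* over *Il1rn* and *Il1r1* over *Il6*. In *MxCDX2* mice *Casp1* (42.6) came first and *Il1b* (28.8) next, though their ranges overlapped. There followed *Nlrp3* (12.8), *Il1r2* (11.0), *Il1rn* (7.82), *Tnf* (5.27), *Il18* (3.52), *Il1r1* (1.79), *Il1rap* (1.42) and *Il6* (0.11). In that group the neighbours that did not overlap were *Il1b* over *Nlrp3*, *Il18* over *Il1r1* and *Il1rap* over *Il6*. The decoy receptor thus stood above *Nlrp3* and *Il1rn* by mean level in controls and between them in *MxCDX2* mice.

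The controls varied among themselves. The wild-type mouse was the highest control for *Il1b*, *Il18*, *Il6*, *Il1r1* and *Casp1* and the lowest for *Il1rn*, *Il1r2*, *Il1rap*, *Nlrp3* and *Tnf*, hence at an extreme for 10 of 10 genes, where it was at an extreme for 80.7% of all genes tested. The *RsCDX2* and *Mx1Cre* controls were each at an extreme for 5 of 10, against 58.1% and 61.0% of all genes. The library of the wild-type mouse also stood apart in markers of several cell types. Summed normalized counts of the 6 megakaryocyte markers were 35502, 26111 and 295390 in controls 1, 2 and 3, and those of the 10 macrophage markers were 30523, 27583 and 75042. Dendritic cell markers (7 genes) summed to 7809, 6547 and 19660 and promyelocyte markers (5 genes) to 178485, 141286 and 33136. The wild-type mouse was thus highest for the first 3 lists and lowest for promyelocyte markers, and the part of these markers in the 10 genes was not tested. Genotype and individual cannot be told apart with 1 mouse of each control genotype. Without the wild-type mouse 2 of the 10 genes passed both thresholds, *Casp1* (log2 fold change 1.02, adjusted p = 0.00527) and *Il1r2* (-2.67, adjusted p = 0.0198, edgeR).

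The surrounding pathway was read from 82 further genes in 7 lists, of which 74 were tested and 14 passed, 10 higher and 4 lower, beside 13.6% of all genes tested (4.59% higher and 9.03% lower). The median log2 fold change of the 74 was 0.22. Most of the higher genes were inflammasome and pyroptosis genes. Of these 20 genes 8 rose and 1 fell past the thresholds, beside 4.59% and 9.03% of all genes tested. All 3 *MxCDX2* mice lay above all controls for 14 genes and below them for 2, beside 21.4% and 20.7% of all genes, and the median log2 fold change was 0.94. Leaving out 1 mouse gave 7 to 9 higher genes, and DESeq2 gave 9. The list was chosen with earlier results of these data known. Monocyte markers rose past the thresholds in 6 of 8, with a median log2 fold change of 2.23, and their part in this list was not tested.

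The largest rise in that list was in *Nlrp10*, an NLR family member, with 44.7, 48.7 and 66.6 normalized counts in controls and 426, 848 and 665 in *MxCDX2* mice (log2 fold change 3.59, SE 0.34, adjusted p = 0.00187 by edgeR). *Nlrc4*, the sensor that NAIP proteins activate on bacterial flagellin, had 423, 545 and 411 against 2769, 2173 and 1776 (2.28, SE 0.21, adjusted p = 0.00181 by edgeR). *Nlrp1a*, another inflammasome sensor, rose from 443, 481 and 232 to 1406, 1443 and 1287 (1.84, SE 0.28, adjusted p = 0.00653 by edgeR), and its paralogs share sequence with it, which makes its count less certain. All 3 kept their calls with any 1 mouse left out. *Pycard*, which encodes the ASC adaptor between NLRP3 and caspase-1, and which is named here after its values were seen, rose from 2638, 2142 and 2379 to 5838, 4763 and 5656 (1.18, SE 0.13, adjusted p = 0.00240 by edgeR). The pore-forming *Gsdmd* (0.81, adjusted p = 0.0158) and the cytosolic lipopolysaccharide sensor *Casp4* (0.83, adjusted p = 0.0236), also singled out afterwards, had adjusted p-values below 0.05 by edgeR without reaching the fold, as *Casp1* did.

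*Nlrp6*, an NLR gene best known from the intestine, was the gene of this list that fell. It had 66.4, 56.6 and 774 normalized counts in controls and 6.36, 0.98 and 4.35 in *MxCDX2* mice, so that most of the control mean came from the wild-type mouse. Its log2 fold change was -6.23 (SE 1.38, adjusted p = 0.0223 by edgeR) with all mice and -3.93 (adjusted p = 0.00799) without the wild-type mouse. It lost its call when any *MxCDX2* mouse was left out, with adjusted p-values up to 0.0880.

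**Figure D4:**
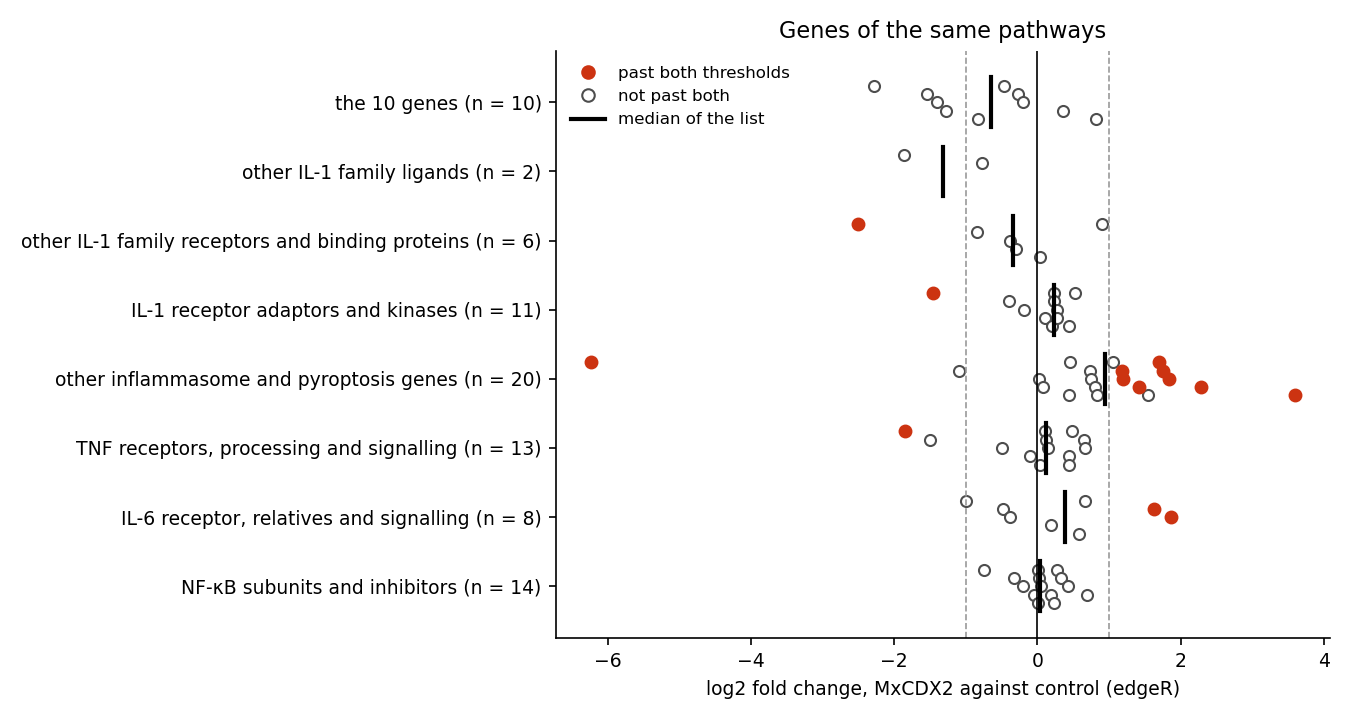
Log2 fold changes (*MxCDX2* over control) of the tested genes in each pathway list, with dashed lines at -1 and 1. The inflammasome list lies mostly above 0 (median 0.94), while the NF-κB list is centred near 0 (median 0.036).

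In the list of IL-6 receptors, relatives and signalling both chains of the IL-6 receptor rose, beside a log2 fold change of -1.54 for *Il6* itself that did not pass. Of 9 genes 8 were tested and 2 rose, with a median log2 fold change of 0.39. *Il6st*, which encodes the shared signal transducer gp130, had 4222, 3257 and 4961 normalized counts in controls and 12568, 17075 and 15771 in *MxCDX2* mice (log2 fold change 1.87, SE 0.19, adjusted p = 0.00231 by edgeR). *Il6ra*, the ligand-binding chain, had 3998, 5677 and 3572 against 14254, 11789 and 14922 (1.63, SE 0.20, adjusted p = 0.00343 by edgeR). Both calls held with any 1 mouse left out.

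The remaining lists held few genes that passed. Of 8 further IL-1 family receptors and binding proteins 6 were tested and *Il1rl1*, the IL-33 receptor, fell from 2180, 1786 and 1329 to 632, 146 and 156 (log2 fold change -2.50, SE 0.61, adjusted p = 0.0304 by edgeR). This call was lost in 4 of the 6 fits with 1 mouse left out, without control 1, control 2, *MxCDX2* mouse 2 or *MxCDX2* mouse 3, where the adjusted p reached 0.0939. Mast cell and basophil markers, whose cells use this receptor, were lower in 4 of 6 with sums of 13861 to 17664 against 3649 to 7674, and their part was not tested. Among 11 adaptors and kinases of the IL-1 receptor, *Tab3*, which links TRAF6 to the kinase TAK1, was the gene that fell, from 3119, 2975 and 2027 to 1029, 1010 and 911 (-1.46, SE 0.18, adjusted p = 0.00356 by edgeR), in every fit with 1 mouse left out as well. The median of that list was 0.23.

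Of 13 genes of TNF receptors, processing and signalling, *Lta*, the lymphotoxin that shares TNF receptors, fell from 47.3, 62.6 and 81.1 to 26.5, 11.8 and 14.8 normalized counts (log2 fold change -1.85, SE 0.42, adjusted p = 0.0244 by edgeR). Its call was lost without control 2, *MxCDX2* mouse 2 or *MxCDX2* mouse 3, with adjusted p-values up to 0.104, and the median of the list was 0.12. Of 14 NF-κB subunits and inhibitors none passed by edgeR, DESeq2 or limma voom, while 4 had an unadjusted p below 0.05 by edgeR, beside 36.1% of all genes. Of these, *Relb* and *Ikbkb* also had an adjusted p below 0.05 by edgeR (0.0154 and 0.0259), beside 21.7% of all genes. They went opposite ways without reaching the fold, with log2 fold changes of -0.75 for *Relb* and 0.69 for *Ikbkb*. They are named after their values were seen. Of 7 further IL-1 family ligands 2 could be tested and neither passed by any of these tools, with 1 at an unadjusted p below 0.05 by edgeR. *Il1a*, named after its values were seen, had 147, 119 and 949 counts in controls and 69.9, 96.0 and 169 in *MxCDX2* mice, overlapping between groups, with the wild-type mouse again apart (-1.86, SE 0.86, adjusted p = 0.171 by edgeR).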

How the data were processed

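Bone marrow RNA of 3 *MxCDX2* and 3 control mice was sequenced from stranded mRNA libraries. The authors aligned the reads with STAR (2.5) to GRCm38 and deposited raw counts per gene from HTSeq (0.6.1), without normalization; the annotation was Ensembl release 90 and base calls came from bcl2fastq (2.17.1.14), per the methods and the processing notes. Reads on no gene (9.22 to 14.1% of a library) or on several (2.99 to 3.16%) were left out. Groups came from the labels, which name separate mice and number the *MxCDX2* mice only. Mice of a group differed far beyond sampling noise (chi-square per degree of freedom 58.5 to 198), so no library was a duplicate. The labels give an injection per day for 3 days and the methods an interval of 2 days.

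The main test was edgeR 4.0.16 under R 4.3.3 (TMM, filterByExpr, glmQLFit and glmQLFTest on 15980 genes, Benjamini-Hochberg adjustment). Standard errors came from the quasi-likelihood F statistic. DESeq2 1.42.0 and limma 3.58.1 (voom) were alternatives, with other scalings, filters and thresholds and with each mouse left out. Ratios added 0.5 to each count for the log2 scale and were tested by an exact two-sided permutation test. Exon lengths were those of GENCODE M21, and tables were made with Python 3.11.15. The tests were tested on simulated data.

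The 10 genes and the lists were chosen with earlier results of these data known. From each pathway list, up to 3 genes past both thresholds in each direction, those with the largest absolute log2 fold change, are named. Other named genes are said to have been chosen after their values were seen.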

Additional observations from a re-analysis of the deposited data

How the results depend on the processing

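Of the 10 genes, 0 passed in edgeR, 1 when every gene with at least 1 count was kept, 3 with DESeq2 without a prior and 3 with one, and 0 to 2 with 1 mouse left out. Over all genes the count of 2177 became 611 when a log2 change of 1 was itself the null, 1043 at an adjusted p below 0.01, and 1205 to 2406 with 1 mouse left out, the lowest without *MxCDX2* mouse 3. The 8 higher inflammasome genes became 3 with that null, an alternative applied to that list after its values were seen. The log2 fold change of *Tnf* turned from -0.20 to 0.035 with limma voom, and ran from -0.56 to 0.47 with 1 mouse left out, the positive value without control 2. Of the log2 fold changes of the 10 genes under these alternatives, 2 reversed, 10 passed where the main test did not and 137 stayed on their side of the thresholds with the same direction. With total counts alone the median of all genes moved to 0.12 from 0.0021. A minimum of 10 counts in every mouse removed *Il6*. The causes were not tested.

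No paired analysis was possible because the labels number the *MxCDX2* mice only, so control numbers name mice and pair none. With 3 mice a group and 1 mouse of each control genotype, p-values rest on the spread between few mice. Counting error adds to values on few reads, as for *Il6* (5 to 60 reads per mouse), *Lta* (12 to 89) and *Nlrp6* in *MxCDX2* mice (1 to 6).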

Other observations

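The 6 receptor genes of the chromosome 1 cluster that holds *Il1r1* and *Il1r2* had unequal log2 fold changes (*MxCDX2* over control) along the chromosome. In chromosomal order they were -2.28 for *Il1r2*, -0.27 for *Il1r1*, 0.90 for *Il1rl2*, -2.50 for *Il1rl1*, -0.38 for *Il18r1* and -0.85 for *Il18rap*, of which *Il1rl1* alone passed both thresholds (edgeR's quasi-likelihood test). *Il18rap*, an IL-18 receptor chain, had 7173, 6171 and 7665 normalized counts in controls and 3013, 5510 and 3166 in *MxCDX2* mice, without overlap, and an adjusted p of 0.0523. *Il1rl2*, the IL-36 receptor, had an adjusted p of 0.124. The genes of this cluster were listed after their values were seen.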
